A study of Mus musculus with 22 samples.

Results

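The 10 genes described here, Reln, Cpm, Thsd1, Pllp, Cplx2, Tiam1, Amotl1, Smtnl2, Uaca and Rnase12, had low or near-silent levels in mouse B-lineage lymphomas with a mantle cell lymphoma-like (MCL-like) immunophenotype. They were chosen, among 52636 gene identifiers, because their counts were low in MCL-like tumours and higher in non-MCL primary tumours. Their difference between those groups is therefore given below as a description, with no test. Levels are CPM (capitals), the counts of a gene per 1000000 counts of its library, and the gene Cpm (carboxypeptidase M) is written in lower case. The questions asked were which of the 10 genes were present in all non-MCL tumours and which followed Vpreb1, a gene of early B cells.

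The 22 libraries came from 15 mice of a mixed 129 and C57Bl6 strain. All mice carried floxed p53 alleles (p53fl/fl) and Mb1Cretg/+, in which Cre recombinase is driven from a B-lineage promoter, so no group has an intact p53 background. MCL-like tumours (4 primary libraries from 4 mice) and Ccnd2 non-MCL tumours (3 primary libraries from 3 mice) also carried R26-Ccnd2tg/tg, a homozygous cyclin D2 transgene, while p53-only tumours (7 primary libraries from 6 mice, all non-MCL) did not. Tumours grown in NSG mice, an immunodeficient strain without B, T and NK cells of its own, gave 6 MCL-like transplant libraries from 4 source mice and 2 Ccnd2 non-MCL transplant libraries from 1 source mouse. Ages are not given in the labels used here. The titles of the 6 MCL-like transplants call them non-MCL, whereas their immunophenotype field says MCL-like, and they were grouped by the latter. Ccnd2 itself was at 45.8 and 83.4 CPM in the Ccnd2 non-MCL transplants, against 1493 to 2591 CPM in the MCL-like transplants. With the same genotype label, it ran from 451 to 1953 CPM in Ccnd2 non-MCL primaries and from 1181 to 2127 CPM in MCL-like primaries. In p53-only primaries, without the transgene, it ran from 5.49 to 1028 CPM, so the level alone does not tell the genotype. The low level in the Ccnd2 non-MCL transplants would go against the transgene label if transgene reads are counted under Ccnd2. This was not tested, so these are called the libraries labelled Ccnd2 non-MCL transplant where a result rests on them. The source mouse of those transplants has no primary library here, so they add a mouse that is in no primary contrast. Because tags come from transcript ends, Trp53 counts need not fall in the deleted part and do not check the deletion. B-cell identity was checked with 14 general B-cell markers, which summed to between 2549 and 8956 CPM over the 22 libraries with none at 0 in a group. Library totals ran from 2693399 to 8146613 counts, so 1 count was worth well under 1 CPM in every library.

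Vpreb1 encodes part of the surrogate light chain, which pairs with the immunoglobulin heavy chain on pro-B and pre-B cells before a true light chain is made, and is shut off in mature B cells. The 10 genes do not form a pathway. Reln encodes reelin, a large secreted glycoprotein that signals through the lipoprotein receptors Vldlr and Lrp8 and is best known for guiding migrating neurons. Cpm encodes a membrane-anchored carboxypeptidase that trims basic residues from peptide ends, and Thsd1 a membrane protein with a thrombospondin domain that is known from endothelial and blood-forming cells. Pllp encodes plasmolipin, a proteolipid of the MARVEL family first known from myelin. Cplx2 encodes complexin 2, which binds SNARE complexes and regulates vesicle fusion, and Tiam1 an exchange factor that activates the GTPase Rac. Amotl1 belongs to the angiomotin family of junction proteins that bind YAP, the effector of the Hippo pathway. Smtnl2 encodes a smoothelin-like protein with a calponin homology domain, Uaca an ankyrin and coiled-coil protein linked to the apoptosome, and Rnase12 a member of the RNase A superfamily.

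The promoters of 4 genes are shown as examples of both questions. Reln and Cpm were higher in all non-MCL primary mice than in all MCL-like primary mice, and Thsd1 and Uaca, like Cpm, were higher in every Vpreb1-high than in every Vpreb1-low non-MCL primary mouse. Each sequence is the 250 bases before the start of the RefSeq gene model, on build GRCm38.p6, written 5′ to 3′ on the strand of the gene. Capitals mark matches, on either strand, to CCCNNGGG, an inverted pair of half-sites like that bound by the early B-cell factor EBF1, or to TGTGGT, the core of RUNX sites.
Reln (chr5:22344706-22344955, minus strand): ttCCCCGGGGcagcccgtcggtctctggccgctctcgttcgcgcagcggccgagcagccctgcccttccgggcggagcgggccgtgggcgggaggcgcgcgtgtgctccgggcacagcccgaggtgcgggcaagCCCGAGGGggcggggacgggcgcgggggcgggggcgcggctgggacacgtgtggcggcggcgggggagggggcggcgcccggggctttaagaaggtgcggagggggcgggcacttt
Cpm (chr10:117629250-117629499, plus strand): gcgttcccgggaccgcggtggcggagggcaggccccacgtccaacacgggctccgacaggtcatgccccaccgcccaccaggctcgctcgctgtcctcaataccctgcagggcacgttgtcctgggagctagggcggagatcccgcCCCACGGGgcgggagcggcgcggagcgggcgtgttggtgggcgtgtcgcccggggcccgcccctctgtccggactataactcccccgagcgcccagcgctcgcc
Thsd1 (chr8:22227053-22227302, plus strand): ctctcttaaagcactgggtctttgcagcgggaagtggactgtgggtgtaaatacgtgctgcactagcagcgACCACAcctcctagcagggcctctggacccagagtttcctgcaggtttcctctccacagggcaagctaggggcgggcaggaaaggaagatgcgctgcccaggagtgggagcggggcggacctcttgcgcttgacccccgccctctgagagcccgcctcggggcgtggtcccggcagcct
Uaca (chr9:60794192-60794441, plus strand): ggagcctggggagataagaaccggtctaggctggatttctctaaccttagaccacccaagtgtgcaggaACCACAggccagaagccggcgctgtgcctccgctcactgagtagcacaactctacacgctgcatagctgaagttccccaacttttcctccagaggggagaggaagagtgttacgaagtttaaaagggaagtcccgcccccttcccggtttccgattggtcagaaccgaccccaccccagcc

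RefSeq gave 11 promoters for the 10 genes, with 2 for Tiam1, and 32851 promoters of all genes as background. GC content was 80.0% in Reln, 74.4% in Cpm and 72.0% in Smtnl2, against a median of 52.4% over all promoters, and the Reln promoter was richer in GC than 98.8% of them. At the other end, one of the Tiam1 promoters had 48.4% and Cplx2 50.8%. The Cplx2 promoter, at chr13:54302306-54302555, lies well before the gene position given below (chr13:54371349-54383917). The promoters of Tiam1, Amotl1 and Rnase12 lie inside the gene positions given below. CCCNNGGG matched 2 times in Reln, 1 time in Cpm, 4 times in Smtnl2 and 1 time in Cplx2, where overlapping matches count separately, and 11.8% of all promoters hold it. TGTGGT matched 1 time each in Thsd1, Uaca and the other Tiam1 promoter, and 14.0% of all promoters hold it. CAGGTG, an E-box, matched 1 time each in Pllp and the same Tiam1 promoter, against 17.2% of all promoters, and AACAAAG, a core of TCF and SOX sites, matched only that one of the 11 promoters, against 5.03%. The promoters of Amotl1 and Rnase12 and the Tiam1 promoter with 48.4% GC matched none of these patterns. Amotl1, whose promoter is not shown, was also higher in every Vpreb1-high than in every Vpreb1-low non-MCL primary mouse. A match is a description of the letters, and no binding was measured.

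In the heat map of all libraries the MCL-like columns are dark for nearly all of the genes, and the non-MCL columns differ from each other.

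**Figure D1:**
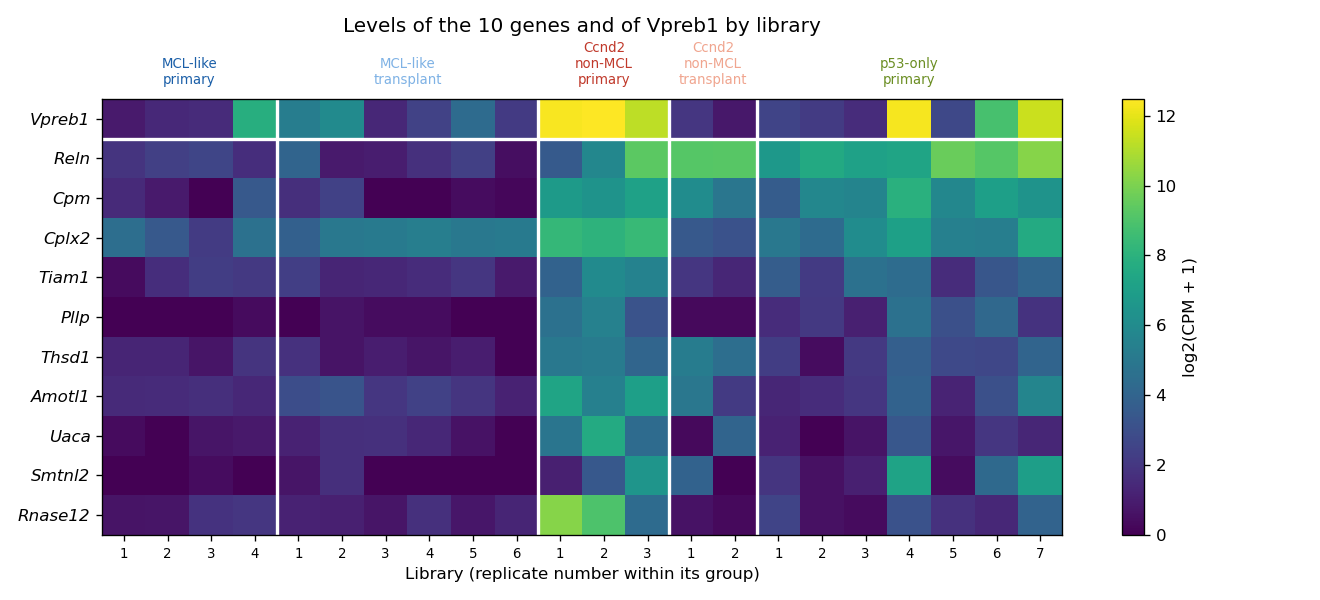
Colour gives the level of each gene (rows) in each library (columns) as log2(CPM + 1), with white lines between the 5 groups and below Vpreb1. Reln and Cpm are raised in most non-MCL primaries and the libraries labelled Ccnd2 non-MCL transplant, and Uaca and Rnase12 mainly in Ccnd2 non-MCL primaries. Ccnd2 non-MCL primary 1 has 10.4 CPM of Reln, below MCL-like transplant 1 at 15.2 CPM. p53-only primary 1 has 11.4 CPM of Cpm, next to MCL-like primary 4 at 10.2 CPM. Vpreb1 is high in 3 Ccnd2 non-MCL and 3 p53-only primaries.

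Reln, the secreted ligand, separated MCL-like from non-MCL tumours among primaries. Among transplants it did so too, where the non-MCL side was 2 libraries of 1 source mouse. The 4 MCL-like primaries had 2.68, 4.22, 5.06 and 2.15 CPM of Reln (chr5:21884454-22344702, minus strand, GRCm38). Ccnd2 non-MCL primaries 1, 2 and 3 had 10.4, 54.0 and 635 CPM, and the 7 p53-only libraries ran from 100.2 through a median of 190.2 to 1195 CPM. All 9 non-MCL primary mice lay above all 4 MCL-like mice, and Ccnd2 non-MCL mice 1 and 2, which had the most Vpreb1, had the least Reln among them. The libraries labelled Ccnd2 non-MCL transplant had 580.1 and 609 CPM of Reln, with 2.91 and 0.762 CPM of Vpreb1. The 6 MCL-like transplants ran from 0.359 through a median of 1.64 to 15.2 CPM, so those 2 libraries lay far above them.

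Cpm, the membrane carboxypeptidase, was present in every non-MCL tumour, although the margin to the MCL-like tumours was narrow. MCL-like primaries 1 to 4 had 1.78, 0.844, 0 and 10.2 CPM of this gene (chr10:117629500-117687352, plus strand), where a count of 0 allows up to 0.950 CPM. Ccnd2 non-MCL primaries had 112, 83.6 and 138 CPM and p53-only libraries 11.4 to 241 CPM, with a median of 54.0. The highest MCL-like and the lowest non-MCL primary library thus lay at 10.2 CPM (95% exact Poisson interval 7.22 to 14.0, counting error only) and 11.4 CPM, which is within counting error. MCL-like primary 4, the library with the most Cpm in its group, was also the only MCL-like primary with much Vpreb1, at 224 CPM against at most 1.90 in the others. The libraries labelled Ccnd2 non-MCL transplant had 66.4 and 28.5 CPM, above the 0 to 4.24 CPM of the MCL-like transplants.

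Thsd1 stayed low in MCL-like tumours, was highest in Ccnd2 non-MCL tumours and was also high in the transplants labelled non-MCL, which had little Vpreb1. MCL-like primaries had 1.49, 1.48, 0.633 and 2.69 CPM (chr8:22227313-22261334, plus strand), and Ccnd2 non-MCL primaries 30.4, 35.4 and 15.6 CPM. The p53-only libraries ran from 0.330 through a median of 5.39 to 15.4 CPM. All non-MCL primary mice except p53-only mouse 2+5, whose pair of libraries had 0.330 and 5.79 CPM, lay above the MCL-like mice. The libraries labelled Ccnd2 non-MCL transplant had 36.2 and 21.6 CPM, within or just above the range of the Ccnd2 non-MCL primaries, and the MCL-like transplants at most 2.42 CPM.

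Pllp was all but undetected in MCL-like tumours. A single count was found in the 4 MCL-like primaries together, in replicate 4 (chr8:94674894-94696278, minus strand), or 0.0667 CPM over the pooled libraries (exact Poisson interval 0.00169 to 0.372). Ccnd2 non-MCL primaries had 24.1, 43.2 and 8.22 CPM and p53-only libraries 1.15 to 23.9 CPM, with a median of 3.14. All 9 non-MCL primary mice lay above the MCL-like mice, but the libraries labelled Ccnd2 non-MCL transplant held 1 count each and lay within the range of the MCL-like transplants, at 0 to 0.565 CPM. An antisense gene, Gm45767, overlaps Pllp and had 150 counts over all libraries. The strand setting of the counting is not given in the sources used here, so reads of the pair may not be separated.

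Cplx2 was low rather than silent in MCL-like tumours. MCL-like primaries had 21.4, 10.1, 3.48 and 24.2 CPM of this vesicle fusion regulator (chr13:54371349-54383917, plus strand), and Ccnd2 non-MCL primaries 318, 269 and 335 CPM. The p53-only libraries ran from 19.6 through a median of 42.2 to 194 CPM. As mice, all non-MCL primaries lay above the MCL-like ones, but p53-only library 2, at 19.6 CPM, overlapped with 2 MCL-like libraries. The order was the opposite in transplants: MCL-like transplants had 13.2 to 39.7 CPM and the libraries labelled Ccnd2 non-MCL transplant 10.1 and 7.88 CPM.

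Tiam1, the Rac activator, was raised in most but not all non-MCL primaries and not in transplants. MCL-like primaries had 0.297, 2.11, 3.80 and 3.22 CPM (chr16:89787111-90143769, minus strand), and Ccnd2 non-MCL primaries 14.1, 62.0 and 45.2 CPM. The p53-only libraries ran from 2.04 through a median of 11.9 to 24.5 CPM. All non-MCL primary mice except p53-only mouse 2+5 lay above the MCL-like mice. The libraries labelled Ccnd2 non-MCL transplant had 2.91 and 1.52 CPM, within the 0.899 to 3.96 CPM of the MCL-like transplants.

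Amotl1 and Uaca were high in Ccnd2 non-MCL primaries and near the MCL-like level in p53-only tumours with little Vpreb1. Amotl1 (chr9:14541966-14645056, minus strand) had 1.78, 1.90, 2.22 and 1.61 CPM in MCL-like primaries, 153, 42.9 and 129 CPM in Ccnd2 non-MCL primaries, and 1.36 to 49.8 CPM, with a median of 2.88, in p53-only libraries. Uaca (chr9:60794542-60880370, plus strand) had 0.297, 0, 0.633 and 0.806 CPM in MCL-like primaries, 27.5, 196 and 19.3 CPM in Ccnd2 non-MCL primaries, and 0 to 9.61 CPM, with a median of 1.27, in p53-only libraries. For both genes 7 of 9 non-MCL primary mice lay above the MCL-like mice, and the exceptions were p53-only mice 1 and 2+5 for Amotl1 and 2+5 and 3 for Uaca. In the 2 libraries labelled Ccnd2 non-MCL transplant, both from 1 source mouse, Amotl1 was at 30.2 and 3.30 CPM and Uaca at 0.265 and 15.2 CPM. The library that was high for one gene was the low one for the other. MCL-like transplants had 1.26 to 8.47 CPM of Amotl1 and 0 to 2.29 CPM of Uaca.

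Smtnl2 and Rnase12 varied widely among non-MCL tumours. Smtnl2 (chr11:72389164-72411713, minus strand) gave 1 count in the 4 MCL-like primaries together, in replicate 3, or 0.0667 CPM pooled (exact Poisson interval 0.00169 to 0.372). Ccnd2 non-MCL primaries had 1.11, 9.89 and 91.3 CPM of Smtnl2, and p53-only libraries 0.341 to 149 CPM, with a median of 2.79. All 9 non-MCL primary mice were above the MCL-like primary ones for Smtnl2, but mouse 2+5 lay there with 0.445 CPM from 4 counts. The highest MCL-like primary mouse had 0.317 CPM from 1 count, which is within counting error. Rnase12 (chr14:51056698-51057661, minus strand) had 0.595, 0.633, 2.53 and 2.96 CPM in MCL-like primaries, 1183, 501 and 19.4 CPM in Ccnd2 non-MCL primaries, and 0.288 to 14.6 CPM, with a median of 2.38, in p53-only libraries. Only 6 of 9 non-MCL primary mice lay above the MCL-like mice for Rnase12, and 2 Ccnd2 non-MCL mice held most of its counts. The libraries labelled Ccnd2 non-MCL transplant had 14.3 and 0 CPM of Smtnl2, the latter allowing up to 0.762 CPM, against 0 to 2.26 CPM in MCL-like transplants. The highest of these, MCL-like transplant 2, lay above Ccnd2 non-MCL primary 1, at 1.11 CPM. For Rnase12 the libraries labelled Ccnd2 non-MCL transplant had 0.529 and 0.254 CPM, against 0.655 to 2.29 CPM in MCL-like transplants.

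Counted together, all 10 genes were lower in every MCL-like than in every Ccnd2 non-MCL primary mouse, where 10.5% of the 12967 tested genes were, and this is how they had been chosen. Against all 9 non-MCL primary mice this held for 5 genes, Reln, Cpm, Pllp, Cplx2 and Smtnl2, with 2.79% of tested genes as background. Thsd1 joined them without MCL-like primary 4, and Cplx2 left them without the libraries whose names start with oTP. For Pllp, Cplx2, Cpm and Smtnl2 the closest mice lay within counting error of each other. Pllp had 1.15 CPM (4 counts) in p53-only mouse 3 and 0.269 CPM (1 count) in MCL-like primary mouse 4. Cplx2 had 27.0 CPM in p53-only mouse 2+5 and 24.2 CPM in MCL-like primary mouse 4 (exact Poisson interval 19.4 to 29.7). For Reln the lowest non-MCL mouse had 10.4 CPM, above the interval of the highest MCL-like mouse (2.89 to 8.22 CPM). Their intervals still overlapped. The fitted differences from Ccnd2 non-MCL and from all non-MCL primaries had medians of -5.77 and -5.44 on the log2 scale, against -0.04 and -0.13 over all genes. These contrasts chose the genes and share the MCL-like and Ccnd2 non-MCL mice, so the values describe the choice and were not tested. In bulk tumours, fewer cells of a type and less RNA per cell cannot be told apart.

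Among the 9 non-MCL primary mice, Vpreb1 fell into separate ranges. It was at 2.02 to 4.82 CPM in p53-only mice 1, 2+5 and 3, and at 458 to 5691 CPM in p53-only mice 4, 6 and 7 and the 3 Ccnd2 non-MCL mice, with a gap that took 57.7% of the range of log2 levels. Uaca, Amotl1, Thsd1 and Cpm were higher in all 6 mice above the gap than in all 3 below it. Of all tested genes, 6.98% showed this order. High levels in the 3 Ccnd2 non-MCL mice above the gap were part of the choice of the genes. The share over all genes is therefore no fair measure for the chosen ones. By library Uaca ran from 0 to 1.27 CPM below the gap and from 1.56 to 196 CPM above it, and Amotl1 from 1.36 to 2.88 and from 7.38 to 153 CPM. Cpm ran from 11.4 to 54.0 CPM below the gap and from 83.3 to 241 CPM above it, so it was well above the MCL-like level in most mice on both sides. For Thsd1 the libraries overlapped, with up to 5.79 CPM below and from 5.39 CPM above the gap. Within the p53-only mice alone the order was the same: mice 4, 6 and 7 had 14.3, 7.38 and 49.8 CPM of Amotl1 and 9.61, 2.99 and 1.56 CPM of Uaca. The share of all tested genes with this order within p53-only mice was not computed. For Uaca the closest p53-only mice across the gap were mouse 7 at 1.56 CPM and mouse 1 at 1.27 CPM, from 8 and 5 counts. For Thsd1 they were mouse 6 at 5.39 CPM and mouse 1 at 3.81 CPM, from 27 and 15 counts. Both margins were within counting error. No test was made of groups formed on Vpreb1.

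The other 6 genes overlapped across the gap. Reln ran from 100.2 to 789.7 CPM below it and from 10.4 to 1195 CPM above it, and Tiam1 from 2.04 to 24.5 and from 8.98 to 62.0 CPM. Cplx2 ran from 19.6 to 65.1 CPM below the gap and from 39.1 to 335 CPM above it, and Pllp from 1.15 to 7.15 and from 2.53 to 43.2 CPM. Rnase12 ran from 0.288 to 4.82 CPM below the gap and from 1.60 to 1183 CPM above it. Smtnl2 ran from 0.341 to 2.79 and from 1.11 to 149 CPM, and its low value above the gap was Ccnd2 non-MCL primary 1, among the libraries richest in Vpreb1. In the panels that plot each gene against Vpreb1, Reln and Cpm have non-MCL libraries at both ends of the Vpreb1 axis, while Amotl1 and Uaca rise only at its right among the primaries.

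**Figure D2:**
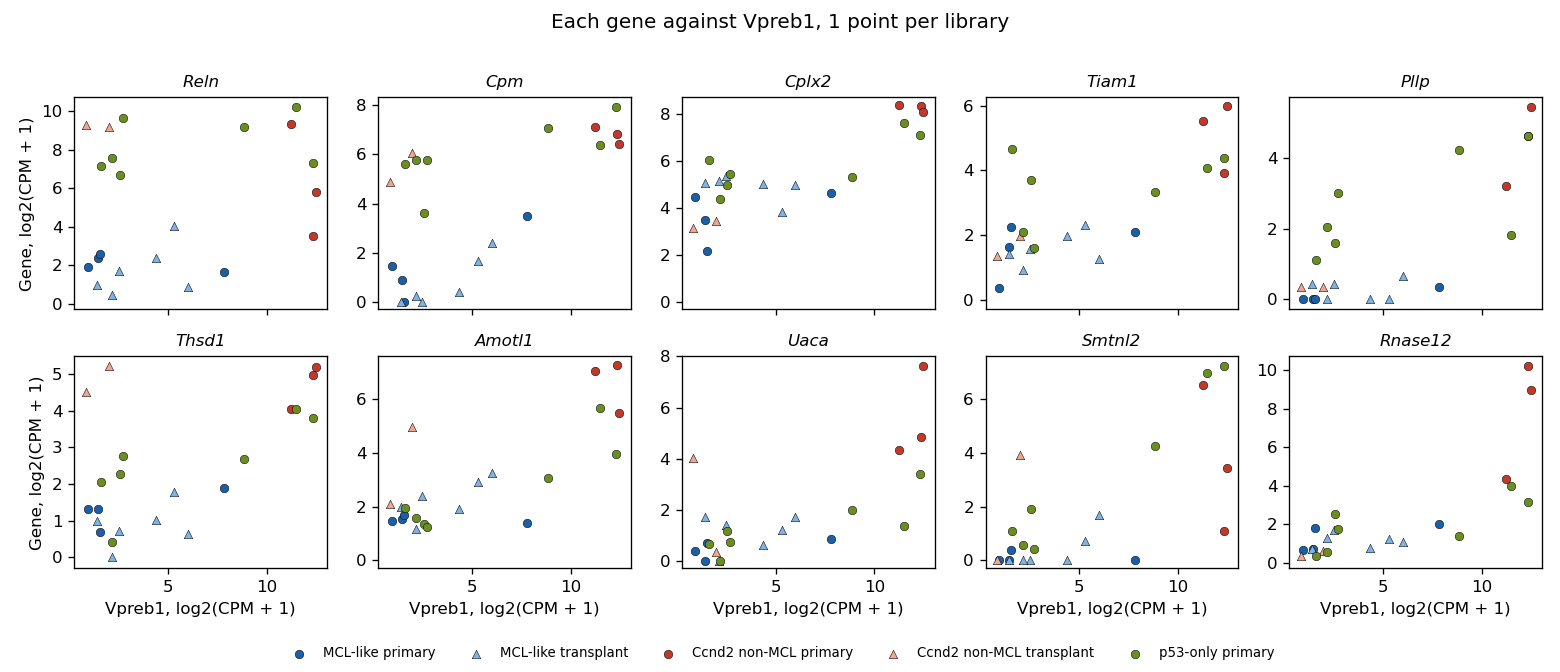
Each panel plots 1 gene against Vpreb1, both as log2(CPM + 1), with 1 point per library coloured by group (triangles are transplants). The libraries labelled Ccnd2 non-MCL transplant lie at the far left, with Reln at 580.1 and 609 CPM and Thsd1 at 36.2 and 21.6 CPM.

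The labels move with Vpreb1 in these mice. All 3 p53-only mice above the gap come only from libraries whose names start with oTP, and no other p53-only library was above it. The 4 libraries below it hold 1 such library, p53-only 5, with 5.45 CPM of Vpreb1, 1.36 CPM of Amotl1 and 0.681 CPM of Uaca, so name and Vpreb1 range did not coincide in every library. The labels do not call the name a batch. Of the 6 mice above the gap, 2 were mediastinal lymphomas and 1 a thymoma, and none of the 3 below it was. The 19 pro-B and pre-B markers, Vpreb1 included, summed to 8403 to 15707 CPM in Ccnd2 non-MCL primaries, 1064 to 14484 CPM in p53-only primaries, 1627 to 3261 CPM in MCL-like primaries and 2801 and 3018 CPM in the libraries labelled Ccnd2 non-MCL transplant, with none at 0 in a group. The part of these traits in the levels of the 10 genes was not tested. Vpreb1 overlaps Top3b on the other strand, so some of its low counts may be reads of that gene.

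Since the Vpreb1 levels were in separate ranges, a correlation was computed only within the 6 mice above the gap, for each of the 10 genes on log2(TMM-scaled CPM + 1). These mice include the 3 Ccnd2 non-MCL ones, whose high levels of the genes were part of the choice. Ccnd2 non-MCL mice 1 and 2 also had the most Vpreb1, at 5231 and 5691 CPM. The correlations and their p-values are therefore no independent evidence. Thsd1 had the highest Pearson's r, 0.856 (exact permutation p = 0.025) and Spearman's rho of 0.771 (exact permutation p = 0.103), and the adjusted p over the 10 relations was 0.25 for r by permutation and Benjamini-Hochberg adjustment. Without the 2 mice farthest from the median Vpreb1, r for Thsd1 was 0.623 over 4 mice. Pllp had the same rho of 0.771 with an r of 0.253 (exact permutation p = 0.589), which was 0.993 over those 4 mice. Reln had the lowest value, an r of -0.63 and a rho of -0.71 with exact permutation p of 0.169 and 0.136, and r was -0.87 without those 2 mice. For Cplx2 r was 0.808 (exact permutation p = 0.0931) and rho 0.486 (exact permutation p = 0.356), and r was 0.404 without those 2 mice. The remaining 6 genes had r between -0.14 and 0.716, with exact permutation p of at least 0.104. None of the 10 relations passed the adjustment, in a design where the smallest exact p is 0.00278.

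To ask whether the genes differ with the transgene among non-MCL tumours, Ccnd2 non-MCL primaries were compared with p53-only primaries. The comparison shares its Ccnd2 non-MCL mice with the contrast that chose the genes, so high levels there were part of the choice and its values are no independent evidence. All 3 Ccnd2 non-MCL mice were above the Vpreb1 gap, against 3 of 6 p53-only mice, and 17 of 19 pro-B and pre-B markers had positive differences in the same direction, with a median of 1.04 on the log2 scale and 0 passing. The part of these markers in the differences was not tested. Rnase12 was at 567.6 ± 585 CPM (SD, n = 3 mice) in Ccnd2 non-MCL and 5.06 ± 5.48 CPM (n = 6) in p53-only primaries, a difference of 6.86 on the log2 scale (SE 1.08, edgeR adjusted p = 0.125). Uaca was at 80.8 ± 99.6 against 2.71 ± 3.52 CPM, a difference of 4.95 (SE 0.95, edgeR adjusted p = 0.179). For both, every Ccnd2 non-MCL mouse lay above every p53-only mouse, as it did for Cplx2 and Thsd1, an order that 1.72% of tested genes showed. With edgeR 0 of 12967 genes (0%) passed in this comparison, 1330 had an unadjusted p under 0.05, and DESeq2 called 129. DESeq2, on the same mice that entered the choice, gave adjusted p of 7.35e-09 for Rnase12, 0.000281 for Uaca and 0.0364 for Amotl1. Over all alternatives the adjusted p ran from 7.35e-09 to 0.328 for Rnase12, from 0.000281 to 0.832 for Uaca and from 0.0108 to 0.537 for Amotl1.

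Cplx2 was at 307 ± 33.8 against 82.0 ± 68.2 CPM in that comparison (log2 difference 1.92, SE 0.59, edgeR adjusted p = 0.349), and Thsd1 at 27.1 ± 10.3 against 7.13 ± 5.59 CPM (1.95, SE 0.59, adjusted p = 0.338). Amotl1 differed by 3.09 (SE 0.83, edgeR adjusted p = 0.311), with p53-only mouse 7 at 49.8 CPM above Ccnd2 non-MCL mouse 2. The differences of Pllp, Tiam1, Cpm, Smtnl2 and Reln were 1.56, 1.495, 0.22, -0.53 and -0.93, with edgeR adjusted p between 0.445 and 0.944. For Cpm, at 111 ± 27.1 and 94.97 ± 82.1 CPM, the spread between p53-only mice was larger than the difference. The 14 endothelial markers summed to 271 to 525 CPM in Ccnd2 non-MCL primaries, 126 to 398 CPM in p53-only primaries and 139 to 312 CPM in MCL-like primaries, with none at 0. All 10 of them that were tested had positive differences of Ccnd2 non-MCL from p53-only primaries, with a median of 1.74 on the log2 scale against -0.04 over all genes, and 0 passed. The part of endothelial cells in the levels of Thsd1, Amotl1 and Uaca was not tested. The 13 stromal markers overlapped widely, at 18.8 to 167, 10.1 to 215 and 7.52 to 182 CPM in the same order, with Ccl21a at 0 in all 3 groups.

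The contrasts of primaries that define the genes do not hold the transplants, although their levels were known when the genes were proposed. In MCL-like transplants most levels were again low, with overlaps. Amotl1 reached 8.47 CPM, above the highest MCL-like primary at 2.22 CPM and p53-only primary 6 at 7.38 CPM. Uaca reached 2.29 CPM, against 1.56 CPM in p53-only primary 7. Cplx2 reached 39.7 CPM, against 39.1 CPM in p53-only primary 6. In 3 mice with both a primary and a transplant, with mouse as a block, edgeR called 0 of 12020 genes (0%), with 656 at an unadjusted p under 0.05, and DESeq2 called 29. Only Cplx2, Tiam1 and Reln had enough counts to enter the test. Cplx2 was higher in transplants by 0.87 (SE 0.41, edgeR adjusted p = 0.820), Tiam1 differed by 0.18 (SE 0.999, adjusted p = 0.968) and Reln by -0.35 (SE 1.03, adjusted p = 0.941). The range of each gene in the 6 MCL-like transplants is plotted beside the primaries by library.

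**Figure D3:**
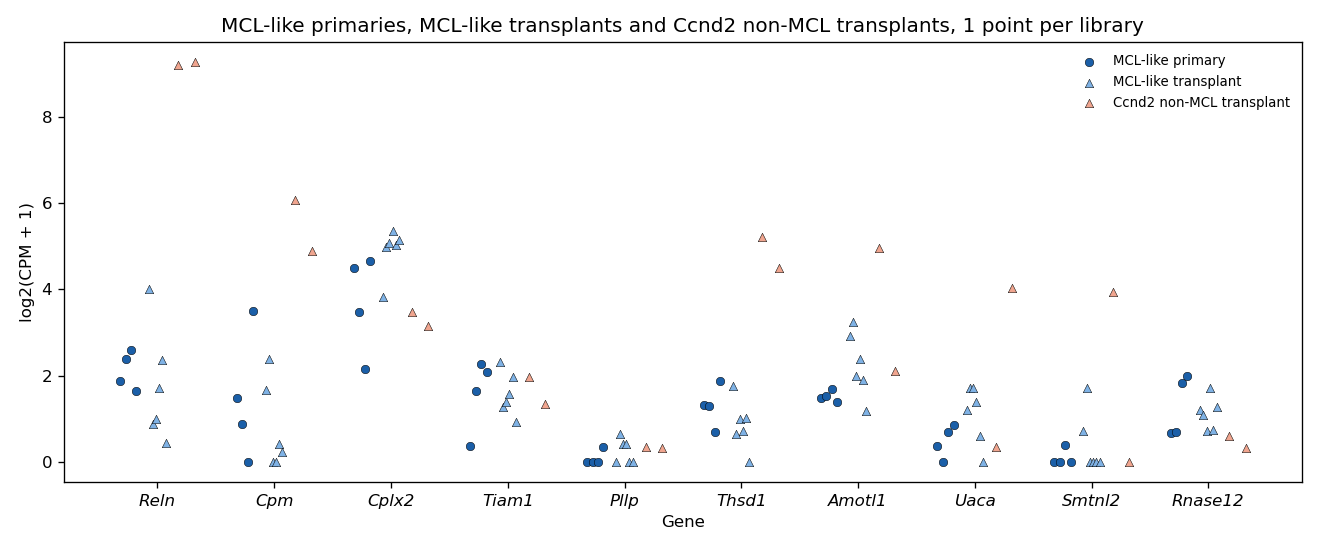
Points are libraries, with the gene on the horizontal axis and log2(CPM + 1) on the vertical axis, for MCL-like primaries, MCL-like transplants and the libraries labelled Ccnd2 non-MCL transplant. Reln, Cpm and Thsd1 are higher in both of the latter than in any MCL-like library, and Cplx2 is lower in both than in any MCL-like transplant.

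Of the transplants, 4 MCL-like source mice were compared with the 1 source mouse labelled Ccnd2 non-MCL, whose variation is assumed to be like that of the others. Thsd1 and Cpm, which did not enter the test of MCL-like transplants against primaries, had enough counts here through that 1 mouse. The p-values are therefore given as values of the fit and support no difference between conditions. Reln was at 3.75 ± 3.77 CPM (SD, n = 4 mice) against 595 CPM, a difference of -7.16 on the log2 scale (SE 1.03, edgeR adjusted p = 0.0542). Thsd1 was at 0.864 ± 0.665 against 28.8 CPM (-4.89, SE 1.09, edgeR adjusted p = 0.129), and Cpm at 0.903 ± 1.46 against 47.1 CPM (-5.49, SE 1.41, adjusted p = 0.178). None of the 3 passed the threshold with edgeR, where 0.313% of 14397 genes did and 0.25% were lower in MCL-like transplants. DESeq2, which also compares with that 1 mouse, gave adjusted p of 9.1e-08, 0.00182 and 0.021. Leaving out MCL-like transplant mouse 1+2 brought edgeR's adjusted p to 0.00922 for Reln, 0.0293 for Thsd1 and 0.00898 for Cpm, and over all alternatives it ran up to 0.206, 0.362 and 0.459. An exact permutation over these 5 mice cannot go below 0.2.

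Cplx2 lay the other way in the transplants, at 30.7 ± 6.81 CPM in MCL-like mice against 8.94 CPM (1.89, SE 0.49, edgeR adjusted p = 0.178). Every MCL-like source mouse was above the Ccnd2 non-MCL one, as for 21.5% of tested genes, 0.0625% were called higher with edgeR, and DESeq2 gave an adjusted p of 0.012 for Cplx2. Without MCL-like transplant mouse 1+2 edgeR's adjusted p for Cplx2 was 0.0287. With libraries summed per mouse, Smtnl2, Uaca and Amotl1 were lower in every MCL-like mouse than in the other, with differences of -4.08, -2.77 and -2.01. This order, shown also by Reln, Thsd1 and Cpm, held for 31.2% of tested genes. By library it did not hold for Smtnl2 (14.3 and 0 CPM), Uaca (0.265 and 15.2 CPM) and Amotl1 (30.2 and 3.30 CPM). For each of them, 1 of the libraries lay within the range of the MCL-like transplants. Smtnl2, Uaca and Amotl1 also did not enter the test of MCL-like transplants against primaries. Tiam1 differed by 0.05 (edgeR adjusted p = 0.990), and Pllp and Rnase12 had too few counts to be tested. The pro-B and pre-B marker sums overlapped, at 1829 to 2868 CPM in MCL-like transplants and 2801 and 3018 CPM in the other libraries. Single markers differed in both directions, with positive differences for 8 of 18 tested. Rag1 was at 0 to 1.41 CPM in MCL-like transplants against 26.4 and 85.2 CPM, and Cd93 at 19.4 to 32.2 against 200 and 506 CPM. Lef1 lay the other way, at 15.8 to 75.8 against 1.02 and 1.06 CPM.

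Libraries that share a source mouse give the spread within a mouse. In the 2 libraries labelled Ccnd2 non-MCL transplant, Reln differed by little, while Smtnl2 had 54 counts in one and 0 in the other. The libraries of p53-only mouse 2+5 differ in site and name. Library 2 is from spleen with a TP name, and library 5 from a lymphoma with an oTP name. In this mouse Reln was at 190.2 and 789.7 CPM and Cpm at 54.0 and 53.8 CPM. The part of site and name was not tested. The 2 libraries of that mouse thus had the same Cpm level within counting error, while their Reln levels lay far apart. The plot of such pairs shows the counting intervals.

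**Figure D4:**
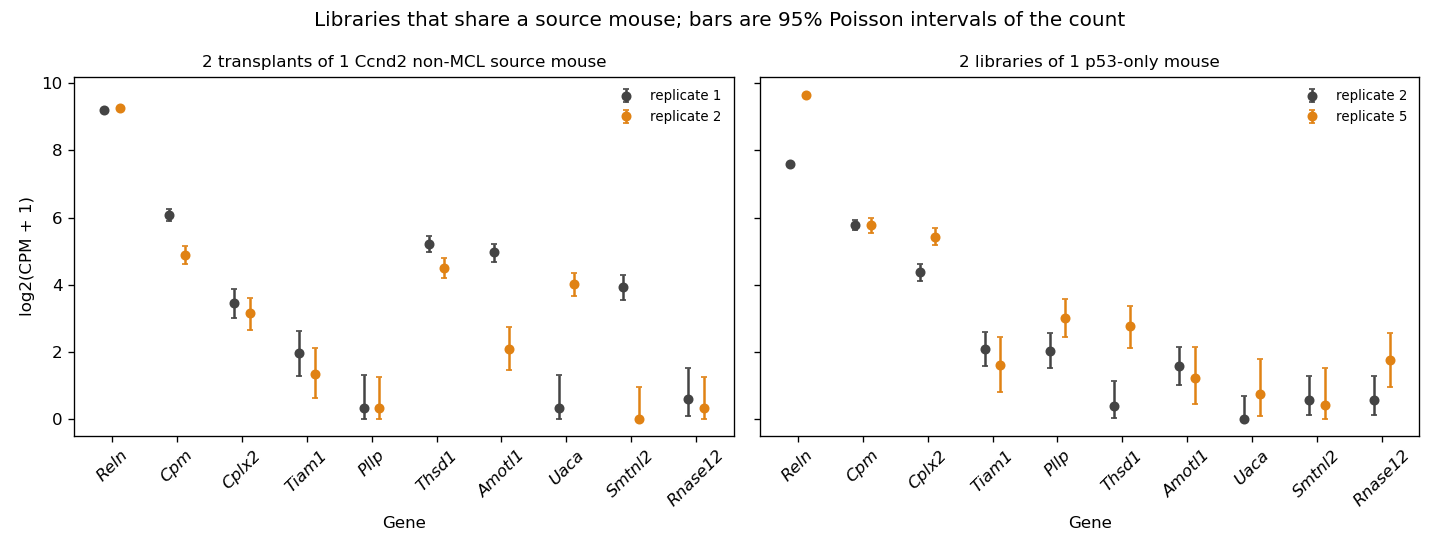
Points give log2(CPM + 1) of each gene in the 2 libraries of 1 source mouse labelled Ccnd2 non-MCL (left) and of 1 p53-only mouse (right), with 95% exact Poisson intervals of the count as bars. Uaca, Amotl1, Thsd1, Smtnl2 and Cpm on the left, and Reln, Cplx2 and Thsd1 on the right, have intervals that do not overlap.

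Partners of the 10 genes were examined in lists of their pathways and families, with MCL-like primaries against all non-MCL primaries, where 5.52% of all tested genes were called with edgeR, 2.68% lower and 2.84% higher. Of the Rac genes around Tiam1, 1 of 14 rose and 0 fell: Rac2, the Rac GTPase of blood cells, was at 811 ± 192 against 338 ± 158 CPM (1.36, SE 0.34, edgeR adjusted p = 0.0356). Agbl5, a carboxypeptidase of tubulin, was at 4.97 ± 0.262 against 16.2 ± 7.25 CPM (-1.57, SE 0.40, edgeR adjusted p = 0.0371) and was the 1 of 4 tested carboxypeptidases that fell. No gene passed among 6 of the reelin pathway, 12 of the angiomotin and Hippo list, 6 of the RNase A family, 12 MARVEL and proteolipid genes, 4 smoothelin and calponin genes, 4 thrombospondin domain genes and 8 apoptosome genes. Vldlr, a receptor of reelin, was at 0 to 0.297 CPM in MCL-like, 0.614 to 2.23 CPM in Ccnd2 non-MCL and 0 to 0.825 CPM in p53-only primaries, and Lrp8, the other receptor, at 5.49 to 13.6, 7.61 to 21.9 and 1.40 to 11.5 CPM. Dab1, the adaptor that relays the reelin signal in neurons, had 0 counts in the MCL-like primaries, 40 counts in Ccnd2 non-MCL primary 2 and 0 in the other two, and 2 counts over the p53-only libraries. Against Ccnd2 non-MCL primaries alone, 0 genes of these lists passed, where 0.308% of all genes did, 0.247% as lower in MCL-like tumours.

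For each gene the 2 genes most like it over the 9 non-MCL primary mice were found among 9914 genes, by Pearson's r of log2(TMM-scaled CPM + 1), as a description that rests on few mice. Mapk1ip1 (r = 0.983) and Ccdc82 (0.983) were most like Thsd1, Maml2 (0.978) and Fam227a (0.941) most like Amotl1, and Ttll9 (0.969) and Atxn7 (0.967) most like Cplx2. Thap1 (0.964) and Cdan1 (0.928) were most like Reln, and Slc25a10 (0.963) and Sdf4 (0.960) most like Cpm. For Tiam1, Uaca, Smtnl2, Rnase12 and Pllp the closest genes were Myo9b (0.959), Kat6b (0.950), Slc12a2 (0.946), Mapk1ip1 (0.938) and Rcsd1 (0.924). These genes need not share the low level in MCL-like tumours: Mapk1ip1 reached 42.4 CPM there against at most 27.8 CPM in non-MCL mice, and Thap1 reached 18.4 CPM. Ttll9 had at most 0.633 CPM in MCL-like and up to 13.2 CPM in non-MCL primaries.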

How the data were processed

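RNA was measured by 3′ end sequencing (QuantSeq reverse kit, per the labels' protocols), in which a transcript gives tags near its 3′ end, so levels are not corrected for length. The submitters' processing notes name FastQC, STAR and the build GRCm38. For the counter, its strand setting, the annotation and tool versions, nothing is stated in the labels or files used here. The authors deposited raw counts per gene and library, with no normalization.

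Symbols and positions came from GENCODE M21 (52403 of 52636 identifiers matched) and promoters from RefSeq (GRCm38.p6). Samples were grouped by genotype, immunophenotype and primary or transplant. Libraries of 1 source mouse were summed, so the mouse is the replicate, and p-values measure the spread between these mice. Comparisons used edgeR 4.0.16 in R 4.3.3: TMM scaling, the default low-count filter, robust quasi-likelihood F tests and Benjamini-Hochberg adjustment over all genes, called at an adjusted p under 0.05. DESeq2 1.42.0, RLE scaling, no filter, leaving out each mouse and leaving out oTP-named libraries were alternatives. The scripts were tested on simulated data. Printed levels are unscaled CPM, a difference is the first minus the second group, and SE is the difference over the square root of F. Correlations added a pseudocount of 1 CPM. Floors for 0 counts are 3 counts, and Poisson intervals are 95%. Both cover counting error only.

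The genes and lists were chosen with earlier results of these data known. The rule for named genes covered the 10 genes, up to 3 per list by adjusted p and the 2 most alike genes. Lrp8, Vldlr, Dab1, Gm45767 and Top3b were named after their values were seen. Transplants name their source mouse, which pairs them with primaries. Deviations from the group means correlated at 0.231 to 0.359 within a mouse over 12020 genes. The list of vesicle fusion genes is not reported here.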

Additional observations from a re-analysis of the deposited data

Results flagged for a closer look

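In 6 cases, which involve 5 mice, a mouse stood apart from the rest of its group for a gene, by a gap that took most of the group's range (Dixon's 95% criterion). For independent groups of normally distributed values, chance gives about 1 such case in 20 groups, and 30 groups were examined. These groups hold the same mice for each gene, and low CPM need not be normally distributed, so the rate is only a rough guide. Pllp was at 0.269 CPM in MCL-like primary mouse 4 and Smtnl2 at 0.317 CPM in MCL-like primary mouse 3, each from 1 count against 0 in the other 3 mice. Smtnl2 was at 1.36 CPM in MCL-like transplant mouse 1+2 and 0 in the others. In these 3 cases any count above 0 meets the criterion when the others are at 0, so that chance rate does not apply to them. Cpm was at 3.09 CPM in that mouse, against 0 to 0.343 CPM. Among p53-only primaries, Uaca was at 9.61 CPM in mouse 4, against 0.222 to 2.99 CPM, and Amotl1 at 49.8 CPM in mouse 7, against 1.52 to 14.3 CPM.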

How the results depend on the processing

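Counts of called genes depended on the tool and the mice. With RLE scaling, DESeq2, no filter and without oTP-named libraries in turn, MCL-like against Ccnd2 non-MCL primaries (40 genes) gave 22, 895, 56 and 552, and MCL-like against all non-MCL (716) gave 687, 1813, 519 and 248. Ccnd2 non-MCL against p53-only (0) gave 0, 129, 2 and 116. MCL-like transplants against primaries (0) gave 0, 29 and 35 with the first 3, and MCL-like against Ccnd2 non-MCL transplants (45) gave 44, 922 and 339. Leaving out each mouse gave 0 to 50 (54 without p53-only mouse 2+5), 176 to 1091, 0 to 8, 0 to 14 and 0 to 1083. The 0 in the first arose without MCL-like primary 3 and those in the last without transplant mice 3+4, 5 or 6. Without the replicate block, transplants against primaries again gave 0 genes, and the pairing otherwise turned only Reln, to 0.35.

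The signs of uncalled differences turned in a few settings. In Ccnd2 non-MCL against p53-only, leaving out each mouse gave -3.03 to 0.27 for Smtnl2 (0.03, 0.27 and 0.04 without Ccnd2 non-MCL 1, p53-only 4 and p53-only 7) and -0.0052 to 0.75 for Cpm (lowest without p53-only 1). In transplants against primaries, Reln ran from -1.56 to 0.86 (without mouse 2) and Tiam1 from -0.82 (without mouse 1) to 0.94. In MCL-like against Ccnd2 non-MCL transplants, Tiam1 ran from -0.14 (without 5, and -0.13 without 1+2) to 0.29. For r with Vpreb1, Amotl1 ran from -0.27 to 0.79, Cplx2 from -0.056 to 0.92 and Cpm from -0.59 to 0.15, with the first, the second and the last sign change without p53-only 6, and Smtnl2 from -0.63 to 0.22 (without Ccnd2 non-MCL 1). Cpm was also 0.11 without Ccnd2 non-MCL 2. The cause was not tested. The number of genes below all non-MCL primary mice was 5, and 6, 4 and 5 under alternatives chosen after seeing the data (without MCL-like primary 4, without oTP-named libraries, TMM-scaled CPM). The source mouse of transplant 5 alone against the Ccnd2 non-MCL one, with no test, gave -7.01 for Reln, -5.82 for Cpm, -4.26 for Thsd1 and 1.76 for Cplx2. Depth limits Pllp and Smtnl2 in MCL-like tumours, where a single count decides the level.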

Other observations

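Marker lists describe the tumours in which the 10 genes were low. With MCL-like against all non-MCL primaries, 7 of 19 pro-B and pre-B genes fell and 1 rose with edgeR, where 2.68% of all tested genes fell and 2.84% rose. Rag1, the recombinase of antigen receptor genes, was at 0.0791 ± 0.158 against 114 ± 118 CPM (edgeR adjusted p = 0.0127), and Sox4, a transcription factor of early lymphocytes, at 6.78 ± 7.76 against 248 ± 183 CPM (adjusted p = 0.0127). Of 14 general B-cell genes 4 rose and 0 fell, among them Cd37, a tetraspanin of mature B cells, at 761 ± 275 against 208 ± 68.3 CPM (edgeR adjusted p = 0.00561). No gene passed in the lists of T cells, NK cells, macrophages and dendritic cells, neutrophils, erythroid cells, endothelium, stroma and epithelium. The 9 erythroid markers all had positive differences, with a median of 2.06 on the log2 scale against -0.13 over all genes. They summed to 23411 to 111182 CPM in MCL-like primaries, 3142 to 32406 CPM in Ccnd2 non-MCL primaries and 89.0 to 38658 CPM in p53-only primaries. The summed T-cell markers ran from 513 to 794 CPM in MCL-like primaries, 66.1 to 175 CPM in Ccnd2 non-MCL primaries and 43.7 to 862 CPM in p53-only primaries.

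Rnase9, another member of the family of Rnase12, had 0 counts in the 4 MCL-like primaries, 68, 15 and 6 counts in Ccnd2 non-MCL primaries 1, 2 and 3, and 61 counts in the 7 p53-only libraries. It missed the threshold against all non-MCL primaries (edgeR adjusted p = 0.0785). Of the 6 family members tested there, 2 had positive differences. Rnase6 lay the other way from Rnase9, at 46.7 to 101.6 CPM in MCL-like primaries. It was at 0.899 to 36.8 CPM in Ccnd2 non-MCL and 1.92 to 61.0 CPM in p53-only primaries.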
